A study of Mus musculus with 4 samples.

Results

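Collagens are the main structural proteins of the extracellular matrix, and their transcripts were followed here through every nucleus type of the mouse brain libraries. The members were all genes whose symbol had the form Col, a number, a and a second number, and the rule found 44 such genes among the 31053 genes of the matrices. No measured value entered that rule, though it was chosen with earlier results of these data known. Nuclei were sorted into classes with marker genes that did not include any collagen, and collagens were also kept out of the clustering, so that no collagen defined the class in which it was read.

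The tissue came from male C57BL/6J mice. At 4 weeks of age they received an adeno-associated virus of serotype 9 in the cisterna magna, the fluid space behind the brainstem, and brains were taken at 8 weeks. AAV-VEGF-C delivered the whole mouse VEGF-C protein (vascular endothelial growth factor C), the main growth factor of lymphatic vessels. AAV-CTRL encoded a soluble piece of mouse VEGF receptor 3, its immunoglobulin domains that do not bind VEGF-C. The control animals thus also received a virus that encodes a protein. Tissue of 5 mice was pooled for each AAV group and split into samples labelled cortex and striatum, which gave 4 single-nucleus libraries with 1 per group. Mice could not be told apart within a library, and the same mice gave both region samples of an AAV group. No difference below has a replicate check, no test was run, and each comparison describes a pair of libraries and not the treatment.

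A collagen molecule is a triple helix of 3 chains, and each gene encodes 1 chain type. Fibrillar collagens form the fibres of skin, bone, meninges and vessel walls. Network collagens of type IV make the sheet of the basement membrane that surrounds every brain vessel and underlies the pia. Other groups decorate fibres, form beaded filaments, or stay anchored in the cell membrane. In the brain the fibrillar chains are known as products of fibroblasts of the meninges and vessels, type IV chains as products of endothelial and mural cells, and several membrane collagens as products of neurons.

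Values are in CPM, the transcript molecules (UMIs, unique molecular identifiers) of a gene per 1000000 UMIs of all genes in the same group of nuclei. Where 4 values are given, the cortex libraries come before the striatum libraries, and within each label AAV-CTRL comes before AAV-VEGF-C. Parentheses hold 95% counting intervals, exact Poisson for a level and exact conditional binomial for a ratio. The intervals cover counting error only and leave out how mice, pools and preparations vary. UMI levels were not corrected for gene length, so levels are set side by side for 1 gene across nuclei and not between genes. A gene was called higher or lower past a 1.5-fold difference with at least 50 UMIs over the 2 libraries compared.

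The libraries had 16125, 18813, 21306 and 16421 nuclei after doublets were left out, with 57510705 to 69238614 UMIs each and medians of 2124 to 2628 UMIs per nucleus. Pairs of libraries shared 76 to 118 cell barcodes, at most 0.658% of the smaller library. Genes of the striatum did not follow the region labels. Ppp1r1b, which encodes the striatal phosphoprotein DARPP-32, was read at 63.5, 76.2, 18.9 and 18.6 CPM, lower in the samples labelled striatum. Slc17a7, the vesicular glutamate transporter of cortical excitatory neurons, did follow them, at 421, 463, 59.7 and 42.6 CPM. The samples labelled striatum also held 264 and 23 nuclei with markers of olfactory sensory neurons and 69 and 85 with markers of dopaminergic neurons, so they are called here by their label and not as striatum. The delivered gene Vegfc was read at 12.3, 11.8, 12.9 and 11.8 CPM over all nuclei and did not separate the AAV groups. The authors report more VEGF-C protein in cerebrospinal fluid and brain extracts after AAV-VEGF-C, and more Vegfc transcript in smooth muscle cells. Whether these counts capture the transcript of the virus was not tested.

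The gene pair that makes the common type IV network, Col4a1 and Col4a2, lies head to head on chromosome 8, and the GENCODE models of the pair overlap by 22 bases at their starts. Both promoter windows are shown because the levels of these neighbours are compared across nucleus classes further on. RefSeq windows (GRCm38.p6) from 250 bases before to 50 bases after each start are chr8:11312777-11313076 on the minus strand for Col4a1 and chr8:11312555-11312854 on the plus strand for Col4a2. Capitals mark the 78 bases, 11312777 to 11312854, that the windows share, read on opposite strands.
Col4a1: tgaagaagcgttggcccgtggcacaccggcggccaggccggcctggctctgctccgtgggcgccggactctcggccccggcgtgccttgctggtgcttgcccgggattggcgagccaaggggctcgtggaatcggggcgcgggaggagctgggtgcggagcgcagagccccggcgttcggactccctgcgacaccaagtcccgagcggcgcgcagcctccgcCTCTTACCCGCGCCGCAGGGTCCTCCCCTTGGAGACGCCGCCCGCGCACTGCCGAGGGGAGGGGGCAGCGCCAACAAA
Col4a2: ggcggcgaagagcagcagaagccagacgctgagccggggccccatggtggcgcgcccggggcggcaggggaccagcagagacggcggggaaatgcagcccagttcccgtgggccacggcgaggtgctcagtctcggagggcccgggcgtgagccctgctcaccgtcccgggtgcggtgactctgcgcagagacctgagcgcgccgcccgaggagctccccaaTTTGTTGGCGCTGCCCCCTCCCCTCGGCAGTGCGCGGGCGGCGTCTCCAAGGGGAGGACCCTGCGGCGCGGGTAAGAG
The letters CCAAT, searched on both strands, occurred 1 time in each window, GGGCGG 1 time in the Col4a1 window and 3 times in the Col4a2 window, and TATAAA in neither. Over all 32851 windows of this length, 37.4% held CCAAT, 35.7% held GGGCGG and 13.6% held TATAAA. RefSeq windows matched 35 of the 44 collagens, and of their 38 windows 13 held CCAAT (34.2%), 23 held GGGCGG (60.5%) and 5 held TATAAA (13.2%). Those without an entry were Col12a1, Col14a1, Col1a1, Col22a1, Col26a1, Col2a1, Col4a3, Col5a2 and Col9a3. The other type IV genes are paired in the same way, with Col4a4 and Col4a3 head to head 71 bases apart on chromosome 1 and Col4a6 and Col4a5 head to head 1308 bases apart on the X chromosome.

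Collagen transcripts were a small part of each library. The 44 genes together gave 32168, 36030, 54960 and 44825 UMIs, or 559 (553 to 566), 520.4 (515 to 526), 834 (827 to 841) and 726 (719 to 732) CPM, which was 0.0520% to 0.0834% of all UMIs. Both libraries labelled striatum lay above both labelled cortex. Membrane collagens took 146 and 132 CPM in cortex and 276 and 299 in striatum, fibrillar chains 86.7, 75.0, 221 and 124, and the type IV basement membrane chains 123, 111, 128 and 117. Over the 4 libraries the basement membrane sum stayed within a narrow range, whereas the fibrillar sum was highest in striatum AAV-CTRL, where it was 182 CPM without the osteoblast-like nuclei described below. Chains that sit on fibre surfaces (FACIT collagens) summed to 111, 112, 86.4 and 75.7 CPM and were the group with lower values under the striatum label. Beaded filament chains of type VI summed to 20.6 to 26.3 CPM, short chain collagens to 17.5 to 29.2, multiplexins, whose fragments include endostatin, to 9.74 to 21.2, and the anchoring fibril chain Col7a1 to 1.63 to 3.08.

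Neuronal nuclei held the largest part of the collagen UMIs and fibroblast-like nuclei the highest level among the classes found in all libraries. Neuronal classes held 70.1%, 73.4%, 56.6% and 64.7% of collagen UMIs from 59.3%, 60.3%, 47.4% and 50.3% of nuclei. Fibroblast-like nuclei held 8.06%, 5.37%, 11.95% and 8.87% of collagen UMIs from 2.02%, 1.40%, 3.60% and 2.12% of nuclei, and their summed collagen level was 3814, 3533, 4022 and 3885 CPM against 506, 486, 708 and 682 CPM in neuronal nuclei. The neuronal level lay below that of the whole library, 559, 520.4, 834 and 726 CPM, in each case. Neuronal nuclei thus held a larger share of all UMIs than of collagen UMIs. Smooth muscle-like nuclei reached 2579, 2909, 2577 and 3076 CPM and choroid plexus-like nuclei 2390, 2088, 2274 and 2076 CPM. Endothelial-like nuclei lay at 791 to 1283 CPM and pericyte-like nuclei at 1009 to 1240 CPM. Within the endothelial-like class the large clusters were lower, at 694 and 584.5 CPM in the one that held most nuclei of the cortex libraries and 803 and 748 CPM in the one that held most of the striatum libraries. A small cluster of 29, 40, 66 and 46 nuclei, led by Lcn2, Vwf and Icam1 among others, lay at 1504, 1732, 2141 and 2744 CPM and held 1060 of the class's collagen UMIs in striatum AAV-VEGF-C, against 819 in the large cluster of 622 nuclei. The lowest summed levels among the large classes were those of oligodendrocyte-like nuclei, at 153 to 337 CPM. In striatum AAV-CTRL 146 nuclei with osteoblast markers, whose leading genes were Bglap, Bglap2, Pax9 and Mmp13 and both type I chains, held 5.84% of collagen UMIs at 11579 CPM, while the other libraries held 1 or 2 such nuclei.

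**Figure D1:**
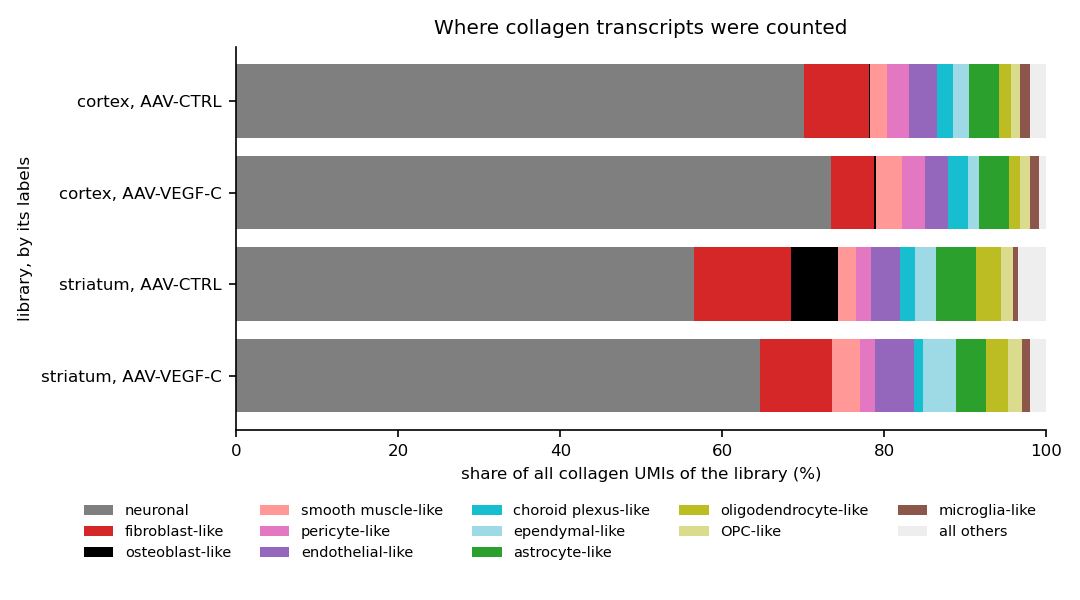
Share of all collagen UMIs by nucleus class in each of the 4 libraries, as stacked bars from 0 to 100%. Neuronal classes take 56.6% to 73.4% of each bar, and the osteoblast-like part is wide in striatum AAV-CTRL, at 5.84%, and at most a line in the other bars.

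Each collagen had a class in which its level was highest, among the 18 classes with at least 20 nuclei in every library, by the mean of the 4 libraries. For 17 of the 44 genes this was the fibroblast-like class, for 5 the choroid plexus-like class and for 5 the smooth muscle-like class. The ependymal-like class led for 4 genes, GABAergic neurons for 3, and differentiating oligodendrocyte-like and microglia-like nuclei for 2 each. OPC-like, spiny projection (SPN-like), Sst or Pvalb interneuron-like, endothelial-like, oligodendrocyte-like and pericyte-like nuclei led for 1 each. The share of all genes led by each class is not given here, so these counts are not read as results about collagens. Some leads rest on few UMIs in the leading class. These were 7 for Col10a1 in microglia-like nuclei, 12 for Col17a1 in choroid plexus-like nuclei and 11 for Col7a1 in GABAergic neurons. For 22 of the 44 genes the range of the leading class over the 4 libraries overlapped that of the next class, among them Col3a1, Col4a2, Col4a5, Col4a6, Col5a2, Col8a2, Col23a1 and Col26a1, so that for these the leading class is not set apart.

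**Figure D2:**
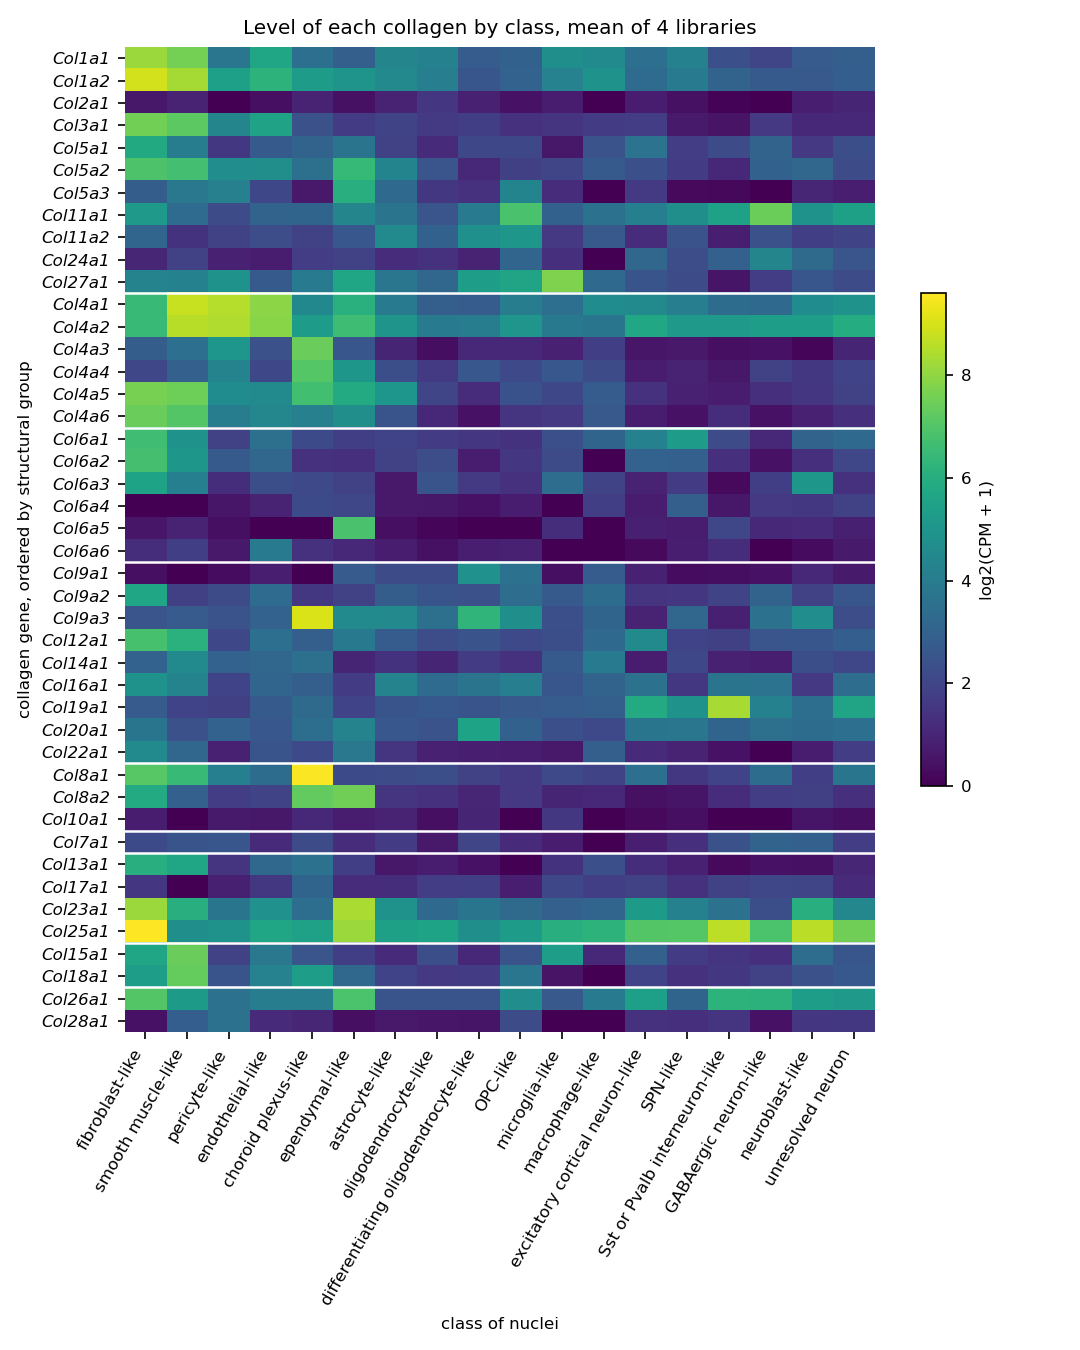
Mean level over the 4 libraries, as log2(CPM + 1), of the 44 collagens (rows, by structural group) in the 18 nucleus classes present in all libraries (columns). Colours are to be compared along a row, with brighter colours for higher levels. The rows of Col1a1, Col1a2 and Col3a1 are brightest in the fibroblast-like column, Col19a1 in the Sst or Pvalb interneuron-like column and Col27a1 in the microglia-like column.

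In fibroblast-like nuclei, a cell type of the meninges and of large vessels, the chains of type I collagen were at their highest among the classes present in all libraries. Col1a2 (ENSMUSG00000029661, GRCm38 chromosome 6, 4504814 to 4541544, plus strand) was read at 428, 414, 565 and 566 CPM, and the interval in cortex AAV-CTRL was 380 to 480 CPM. Its partner chain Col1a1 (ENSMUSG00000001506, GRCm38 chromosome 11, 94936224 to 94953042, plus strand) was read at 276, 256, 313 and 284 CPM. Smooth muscle-like nuclei came next, with means over the 4 libraries of 319.6 CPM for Col1a2 and 191 CPM for Col1a1, and their ranges did not overlap those of fibroblast-like nuclei. Col3a1, which makes the thin reticular fibres, was at 128, 119, 263 and 235 CPM and was higher under the striatum label within this class, by a log2 ratio of 1.04 (0.70 to 1.39) for AAV-CTRL and 0.99 (0.59 to 1.41) for AAV-VEGF-C. Col5a1 and Col5a2, the type V chains that start fibres, were at 55.9, 42.0, 69.8 and 56.7 CPM and at 107, 122, 153 and 104 CPM. Type VI chains, which form beaded filaments next to cells, were also read here, Col6a1 at 88.2, 119, 94.9 and 99.6 CPM and Col6a2 at 104, 104, 109 and 118 CPM. Col12a1, a FACIT chain on the surface of type I fibres, was at 121, 122, 105 and 102 CPM.

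The class was made of 2 clusters with separate collagen sets. The larger, led by Ranbp3l, Fmod, Slc6a13 and Slc22a6, had 236, 191, 569 and 240 nuclei, and the smaller, led by Slc47a1, Prg4, Slc26a7 and Cdh1, had 90, 73, 197 and 108. Col25a1 (ENSMUSG00000058897, GRCm38 chromosome 3, 130131501 to 130599877, plus strand), a membrane collagen known from neurons and from the plaques of Alzheimer disease, was at 2584, 1602, 2005 and 1938 CPM in the Slc47a1 cluster and at 53.8, 124, 92.3 and 70.4 CPM in the Ranbp3l cluster. The intervals did not meet in any library, with the lowest value of the Slc47a1 cluster at 1602 (1435 to 1783) and the highest of the Ranbp3l cluster at 124 (89.6 to 168). The high Col25a1 level of fibroblast-like nuclei, 994, 690.1, 673 and 745 CPM, came from 1 of the clusters.

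The type IV chains Col4a5 and Col4a6, neighbours on the X chromosome, were arranged the other way. Col4a6 was at 269, 275, 286 and 205 CPM in the Ranbp3l cluster and at 3.96, 0, 4.04 and 2.70 CPM in the Slc47a1 cluster, where it had 0 to 2 UMIs per library. Col4a5 was at 285, 269, 338 and 303 CPM against 7.91, 19.1, 10.1 and 16.2 CPM. Col26a1, a small collagen of loosely known function, was at 225, 186, 193 and 182 CPM against 3.96, 14.3, 8.07 and 13.5 CPM, and Col15a1, a multiplexin of basement membrane zones, at 63.2, 82.8, 66.8 and 91.8 CPM against 0 or 1 UMI per library. These 4 genes were thus nearly limited to the Ranbp3l cluster within the class.

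Type I chains were shared by both clusters. Col1a1 was at 339, 314, 385 and 384 CPM in the Ranbp3l cluster and 170.2, 162, 147 and 108 CPM in the Slc47a1 cluster, higher in the former in each library. Col6a1 was at 30.4, 59.2, 56.3 and 59.7 CPM against 186, 214, 184 and 170.3 CPM, Col12a1 at 44.5, 68.1, 52.8 and 65.8 CPM against 249, 209.8, 224 and 165 CPM, and Col8a1, a short chain network collagen, at 21.1, 47.3, 53.6 and 65.8 CPM against 340.3, 315, 313 and 243 CPM. These 3 were higher in the Slc47a1 cluster in each library. Col23a1, another membrane collagen, was at 164, 145, 244 and 272 CPM against 412, 419.5, 349 and 476 CPM. Col8a2, the partner of Col8a1, was at 11.7, 23.7, 24.6 and 12.2 CPM in the Ranbp3l cluster against 154, 119, 137 and 114 CPM. Other members read in the class included Col4a1 (83.0 to 96.8 CPM), Col4a2 (80.2 to 106), Col9a2 (36.5 to 66.4 CPM), Col13a1 (52.7 to 76.7), Col6a3 (35.3 to 55.7), Col16a1 (21.9 to 42.6), Col18a1 (29.2 to 47.8), Col11a1 (27.4 to 39.7) and Col22a1 (8.82 to 33.7).

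**Figure D3:**
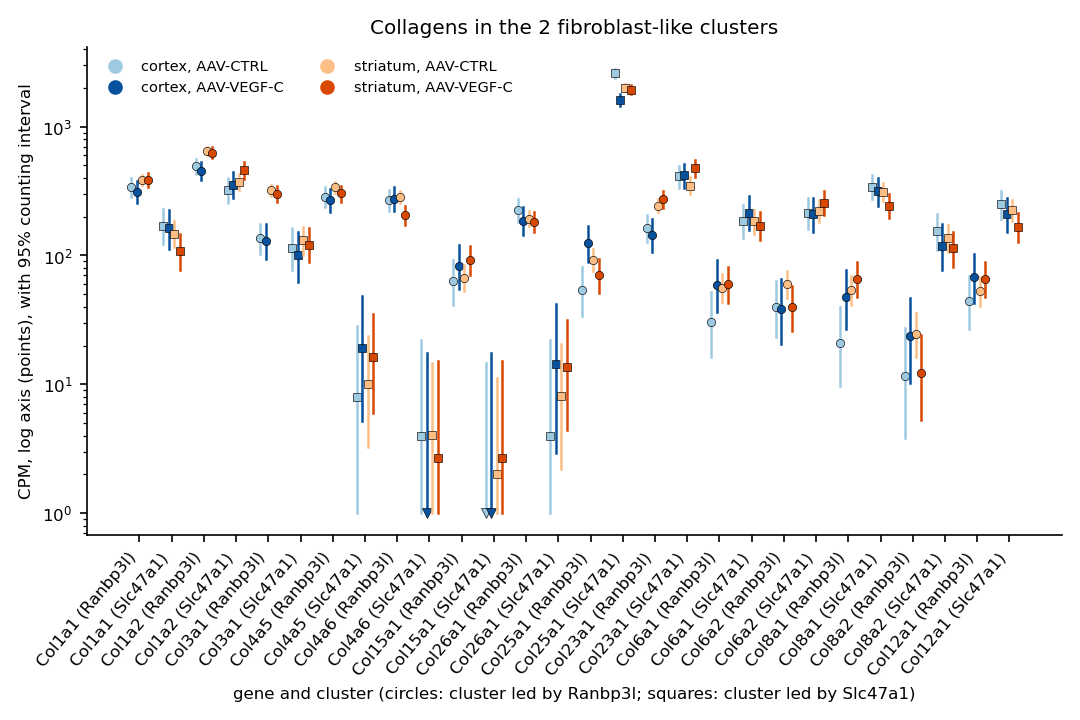
Levels of 14 collagens in the fibroblast-like cluster led by Ranbp3l (circles) and the one led by Slc47a1 (squares), in CPM on a log axis with 95% counting intervals, 1 point per library. Triangles stand for 0 UMIs, and Col25a1 separates the clusters in one direction and Col4a5, Col4a6, Col15a1 and Col26a1 in the other.

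Vessel-associated nuclei carried the common basement membrane pair. In pericyte-like nuclei, the cells that wrap capillaries, Col4a1 was at 406, 376.8, 350.3 and 325 CPM and Col4a2 at 398, 361, 322 and 305 CPM. In smooth muscle-like nuclei, of which there were only 55 to 103 per library, Col4a1 was at 441, 460.0, 434 and 423 CPM and Col4a2 at 419, 385, 323 and 381 CPM. Endothelial-like nuclei, the vessel lining, had less of both, with Col4a1 at 279, 194, 252 and 250 CPM and Col4a2 at 261, 215, 221 and 255 CPM. Col4a1 was thus lower in endothelial-like nuclei than in both mural classes in every library. Pericyte-like nuclei also carried the 15 endothelial markers at a sum of 13738 to 15458 CPM, above the 7442 to 8975 CPM of their own 12 markers, and the part of endothelial RNA in these levels was not tested.

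Smooth muscle-like nuclei had in addition a broad set of other chains. Col1a2 was at 262, 360.5, 297 and 359 CPM, Col18a1, the endostatin precursor, at 161, 176, 139 and 159.5 CPM and Col15a1 at 112, 199, 186 and 185 CPM. The last 2 were higher here than in any other class present in all libraries, with next means of 40.5 and 49.4 CPM in fibroblast-like nuclei. Col4a5 and Col4a6 were at 142, 184, 179.7 and 201 CPM and 119.6, 162, 116 and 119.6 CPM. The class also carried 19 or 20 of the 20 fibroblast markers at a sum of 6363 to 8377 CPM, and the part of that in its fibrillar levels was not tested. In pericyte-like nuclei Col1a2 was at 31.1, 39.9, 57.2 and 38.6 CPM, far below the smooth muscle-like level. Col1a2 in endothelial-like nuclei was at 41.6, 52.4, 85.2 and 116 CPM, beside a fibroblast marker sum of 3488, 2539, 3510.1 and 4630 CPM, so that both were highest in striatum AAV-VEGF-C. Col6a6, a type VI chain, led in endothelial-like nuclei at 8.16, 13.3, 17.03 and 21.4 CPM.

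Epithelial classes of the ventricles had their own chains. In choroid plexus-like nuclei, which make cerebrospinal fluid, Col8a1 was at 936, 744, 740.1 and 534 CPM and Col9a3, a FACIT chain best known from cartilage, at 561, 584, 450.1 and 521 CPM. Col4a3 and Col4a4, best known from the kidney filter, were at 164, 146, 188 and 182 CPM and 200.4, 99.7, 144 and 91.0 CPM. All 4 were higher there than in any other class present in all libraries. Both AAV-VEGF-C libraries were below their AAV-CTRL partners for Col8a1, with log2 ratios of -0.33 (-0.57 to -0.09) in cortex and -0.47 (-0.78 to -0.17) in striatum, and for Col4a4, with -1.01 (-1.62 to -0.41) and -0.66 (-1.43 to 0.06). In ependymal-like nuclei, the ciliated lining of the ventricles, Col8a2 was at 239.6, 229, 121 and 145 CPM, Col6a5 at 160.4, 187, 50.2 and 55.5 CPM and Col5a3 at 85.0, 60.6, 64.4 and 43.3 CPM. Col23a1 and Col25a1 in this class differed by region label, at 23.2, 34.3, 458 and 827 CPM for Col23a1 and 21.2, 18.5, 406 and 689 CPM for Col25a1. Much of the Col25a1 difference lay in a few nuclei. Of the ependymal-like nuclei of the striatum libraries, 7 of 212 and 10 of 124 had at least 5 UMIs of both genes, and they held 55.6% and 87.6% of the class's Col25a1 UMIs. The same nuclei held 19.9% and 67.8% of its Col23a1 UMIs, so that in striatum AAV-CTRL most Col23a1 UMIs lay in other nuclei. No ependymal-like nucleus of the cortex libraries had as many of both.

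Among glial classes, microglia-like, OPC-like and differentiating oligodendrocyte-like nuclei led for some chains, whereas astrocyte-like nuclei led for none and mature oligodendrocyte-like nuclei for Col2a1 alone, at a mean of 1.85 CPM. Microglia-like nuclei had Col27a1, a fibrillar chain of cartilage, at 219, 175, 222 and 233 CPM, several times the 50.4 CPM mean of the next class. OPC-like nuclei, the precursors of oligodendrocytes, had Col11a1, a minor fibrillar chain, at 96.2, 95.4, 122 and 145 CPM, second to GABAergic neurons, and Col27a1 at 17.97, 19.4, 79.8 and 73.2 CPM, which was higher under the striatum label, by 2.15 (1.40 to 2.99) on the log2 scale with AAV-CTRL and 1.91 (1.24 to 2.64) with AAV-VEGF-C. Differentiating oligodendrocyte-like nuclei led for the FACIT chains Col20a1, at 45.6, 46.1, 34.97 and 59.9 CPM, and Col9a1, at 16.8, 20.3, 36.5 and 38.3 CPM. Astrocyte-like nuclei had Col4a5 at 32.5, 26.5, 40.5 and 29.8 CPM, Col4a2 at 29.3, 35.5, 32.3 and 25.6 CPM and Col25a1 at 27.1, 22.4, 55.9 and 66.5 CPM. In mature oligodendrocyte-like nuclei the genes with most UMIs were Col25a1, at 31.9, 22.2, 62.1 and 67.9 CPM, and the type I chains, which were high in striatum AAV-CTRL and are taken up below.

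In neurons the membrane collagen Col25a1 was the chain with most UMIs. Over all neuronal nuclei it was at 128, 121, 301 and 329 CPM, higher under the striatum label. Its gene spans 468.4 kb, and whether intronic reads were counted is not stated in the sources used here. It was at 925 and 803 CPM in the dopaminergic neuron-like nuclei of the striatum libraries and at 416, 456, 1161 and 509 CPM in Vip or Lamp5 interneuron-like nuclei, of which the last 2 values come from 41 and 18 nuclei. It was at 119, 114, 160.2 and 141 CPM in SPN-like nuclei, the projection neurons of striatum, and at 93.8 and 83.5 CPM in excitatory cortical neuron-like nuclei of the cortex libraries. Neuroblast-like nuclei, young neurons of the ventricular wall and its stream, had 112, 391, 425 and 641 CPM. Slc17a6 neurons, glutamatergic neurons of deep regions, reached 449 and 532 CPM in the striatum libraries.

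Col19a1, a FACIT chain with a role in inhibitory synapses, had its highest level in interneuron-like nuclei. In Sst or Pvalb interneuron-like nuclei it was at 349, 379, 364 and 196 CPM, against 35.5, 40.2, 23.3 and 20.2 CPM in SPN-like nuclei. The striatum libraries had only 43 and 27 of these nuclei, and the counting interval in the smaller group was 132 to 279.7 CPM. Vip or Lamp5 interneuron-like nuclei of the cortex libraries had 252 and 244 CPM. Over all neurons it was at 81.7, 82.5, 25.9 and 18.9 CPM, lower under the striatum label, where Sst or Pvalb interneuron-like nuclei were 0.202% and 0.164% of nuclei, against 3.50% and 3.74% in cortex. Col26a1 was at 40.5, 39.9, 49.4 and 52.0 CPM and Col4a2 at 54.1, 51.9, 50.05 and 52.8 CPM in neurons, both within a narrow range. Col6a1 was higher in SPN-like nuclei, at 28.9, 21.1, 53.7 and 46.0 CPM, than in Sst or Pvalb interneuron-like nuclei, at 3.74, 3.84, 0 and 6.53 CPM, where the third library had 0 UMIs and an upper bound of 16.2 CPM. A single cluster carried other fibrillar chains, with Col24a1 at 209 and 162 CPM and Col11a1 at 498 and 416 CPM in the excitatory cluster of the cortex libraries led by Ntng2, Oprk1 and Nr4a2. Olfactory ensheathing or Schwann cell-like nuclei of the AAV-CTRL libraries, 32 and 81 in number, had Col11a1 at 966 and 962 CPM.

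The remaining members were read at low levels throughout. Col14a1, Col28a1, Col7a1, Col17a1, Col6a4, Col2a1 and Col10a1 had class means of at most 22.8, 11.1, 7.23, 7.62, 6.45, 1.85 and 1.96 CPM in the classes present in all libraries. Col2a1, the main chain of cartilage, and Col10a1, a chain of growth plates, were at 0.361 to 1.31 and 0.376 to 0.470 CPM over all nuclei, from 24 to 83 and 26 to 31 UMIs per library. Col11a2, a partner of Col11a1, was at 23.3, 22.8, 47.7 and 36.2 CPM in OPC-like nuclei and at 31.6, 22.6, 24.3 and 11.3 CPM in astrocyte-like nuclei. Col16a1, a FACIT chain, was at 6.55, 5.75, 15.6 and 14.1 CPM over all nuclei and Col22a1, a chain of muscle and tendon junctions, at 2.33, 2.21, 2.81 and 2.20 CPM.

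The ratio of partner chains, which cancels the effect of gene length when 1 pair is followed across classes, was not constant. The UMI ratio of Col4a2 over Col4a1 was 0.92 to 0.979 in pericyte-like, 0.878 to 1.11 in endothelial-like, 0.91 to 1.09 in fibroblast-like and 0.744 to 0.949 in smooth muscle-like nuclei. It was 1.76, 1.87, 2.10 and 2.63 in neurons, 1.60 to 2.57 in astrocyte-like and 1.52 to 2.79 in oligodendrocyte-like nuclei. The ranges over the 4 libraries of the 4 vascular and stromal classes and of these neuronal and glial classes did not overlap. Col4a5 over Col4a6 was 1.02 to 1.51 in fibroblast-like and 5.09 to 9.77 in astrocyte-like nuclei. Col6a1 over Col6a2 was 0.843 to 1.14 in fibroblast-like and 3.45 to 7.53 in SPN-like nuclei, and Col8a1 over Col8a2 was 3.49 to 6.76 in choroid plexus-like and 0 to 0.056 in ependymal-like nuclei.

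Between the AAV groups of the cortex libraries few collagens differed over all nuclei. Of 43 collagens with enough UMIs, 1 was lower in the AAV-VEGF-C library, where 1.41% of all genes tested were, and 2 were higher, against 1.03% of all genes. The lower one was Col5a3, a type V chain, at 2.33, 1.54, 4.60 and 3.74 CPM over the 4 libraries, with a cortex log2 ratio of -0.59 (-0.97 to -0.21) for AAV-VEGF-C over AAV-CTRL. The higher were the type VI chains Col6a4, at 1.69, 3.16, 1.09 and 1.38 CPM with a ratio of 0.91 (0.56 to 1.27), and Col6a6, at 0.487, 0.823, 1.18 and 1.28 CPM with 0.76 (0.08 to 1.47). Both are genes of low level, and the Col6a6 value rests on 28 and 57 UMIs. The median log2 ratio of the collagens was -0.10 and that of all genes -0.01.

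Between the striatum libraries 8 of 44 collagens were lower with AAV-VEGF-C, or 18.2%, against 2.6% of all genes tested, and 0 were higher, against 1.85%. Their median log2 ratio was -0.23 against 0.00 for all genes. The type I chains differed most. Col1a1 was at 7.48, 6.44, 53.8 and 13.8 CPM, a log2 ratio of -1.96 (-2.07 to -1.85) in striatum and -0.22 (-0.41 to -0.02) in cortex. Col1a2 was at 11.2, 9.36, 56.7 and 22.4 CPM, with -1.34 (-1.43 to -1.25) and -0.25 (-0.41 to -0.09). Striatum AAV-CTRL was thus the high library for both genes. The other 6 were Col5a1 at -0.73 (-0.98 to -0.47), Col5a2 at -0.69 (-0.85 to -0.54), Col11a2 at -0.68 (-0.88 to -0.48), Col6a1 at -0.65 (-0.83 to -0.48), Col13a1 at -0.63 (-0.94 to -0.32), a membrane chain of nerve-muscle contacts, and Col4a6 at -0.59 (-0.78 to -0.40).

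The mix of nuclei moved with this comparison. Osteoblast-like nuclei were 146 in striatum AAV-CTRL and 2 in striatum AAV-VEGF-C, and fibroblast-like nuclei were 3.60% and 2.12% of nuclei. Without osteoblast-like nuclei 5 of the 8 stayed past 1.5-fold (Col1a1, Col1a2, Col5a1, Col6a1 and Col11a2), and the Col1a1 ratio became -1.30 (-1.42 to -1.19). In a further setting, each class with at least 20 nuclei in both libraries compared was held at its mean share. Classes with fewer were left out, so osteoblast-like nuclei were left out here too. With shares held in this way 2 of the 8 stayed, Col1a1 at -0.97 and Col11a2 at -0.59. The summed collagen level had a log2 ratio of -0.20 in striatum and -0.10 in cortex, and of 0.00 and -0.06 with class shares held.

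**Figure D4:**
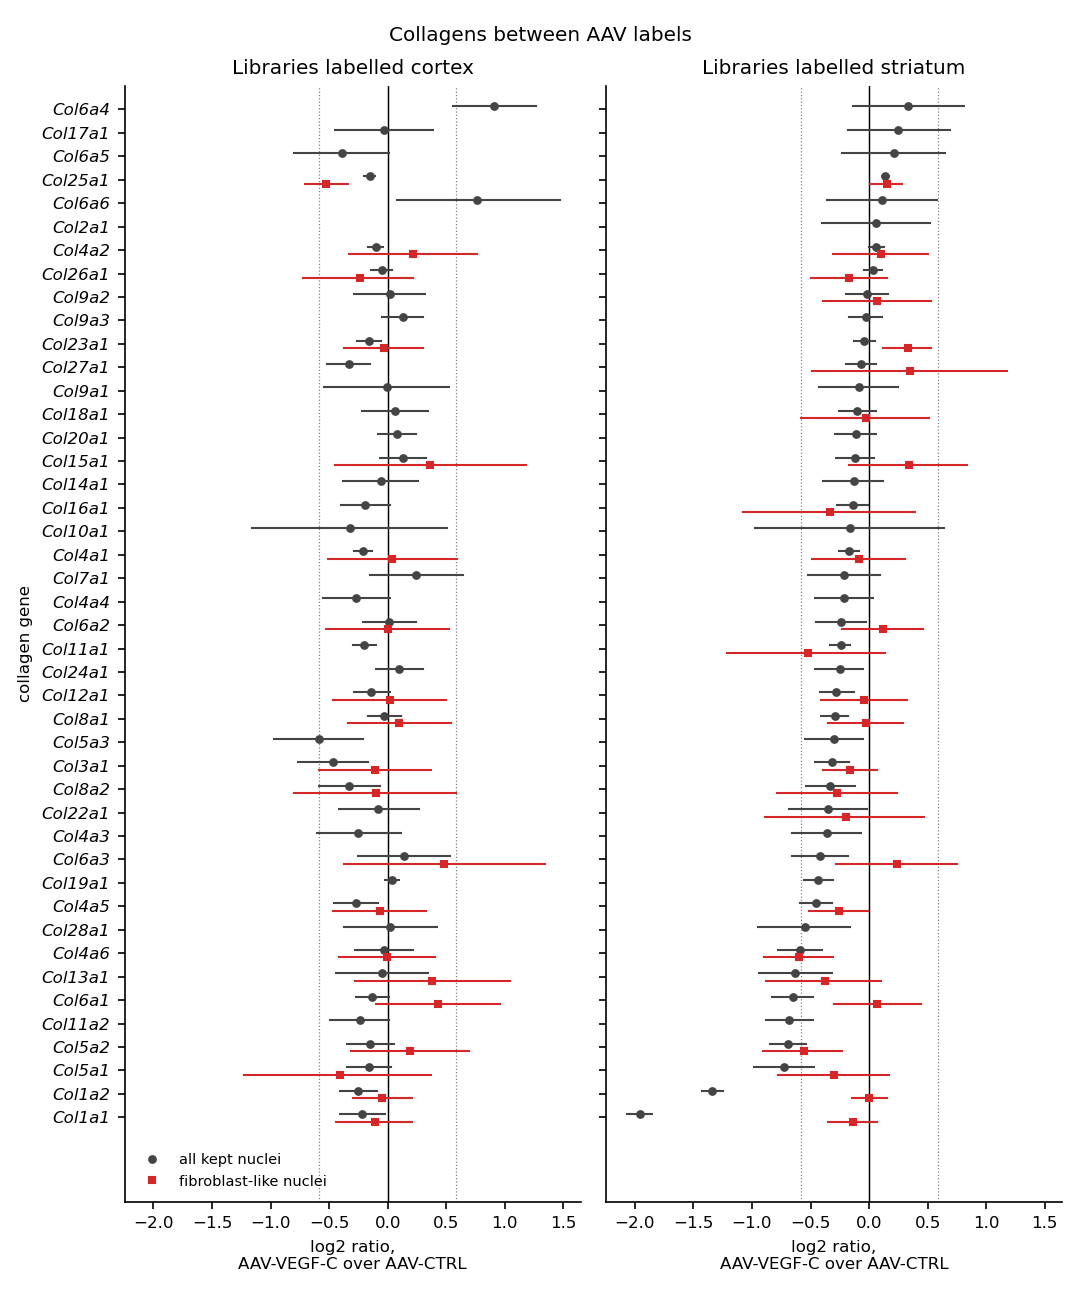
Log2 ratio of AAV-VEGF-C over AAV-CTRL for each collagen with at least 50 UMIs, under the cortex label and the striatum label, with 95% counting intervals. Grey circles are all nuclei, red squares fibroblast-like nuclei and dotted lines the 1.5-fold limits, and the Col1a1 circle under the striatum label sits at -1.96 while its square sits at -0.14.

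Within fibroblast-like nuclei the type I chains did not differ past the limit. The Col1a1 log2 ratio was -0.11 (-0.44 to 0.21) in cortex and -0.14 (-0.35 to 0.07) in striatum, and that of Col1a2 was -0.05 (-0.30 to 0.21) and 0.00 (-0.15 to 0.15). In cortex 0 of 20 collagens tested were lower (4.26% of all genes tested in the class) and 0 higher (3.91%). In striatum 1 of 26 was lower (5.51%) and 0 were higher (2.41%). The lower one was Col4a6, at 171, 169.8, 200.2 and 132 CPM, with a striatum ratio of -0.60 (-0.90 to -0.31). This call ended with no nuclei left out and with ratios centred on the median gene, where 0 collagens were lower. In the Ranbp3l cluster alone, where nearly all Col4a6 was read, its ratio was -0.48 (-0.78 to -0.18), and Col5a2 there had -0.82 (-1.26 to -0.39). Col25a1 had -0.53 (-0.71 to -0.34) in cortex and 0.15 (0.01 to 0.28) in striatum, and in the Slc47a1 cluster -0.69 (-0.88 to -0.50) and -0.05 (-0.19 to 0.09). In the Ranbp3l cluster the cortex ratio had the opposite sign, at 1.21 (0.44 to 2.01) from 23 and 42 UMIs and -0.39 (-0.92 to 0.12) in striatum. Those cortex UMIs of Col25a1 lay in 18 of 236 and 15 of 191 nuclei, or 7.6% and 7.9%, so the share of nuclei with the gene was similar. Median ratios were -0.01 for the collagens and 0.00 for all genes in cortex, and -0.07 for both in striatum. The summed level of the 20 fibroblast markers was 20958, 21783, 24342 and 42433 CPM in this class, so that the markers were highest in striatum AAV-VEGF-C while the summed collagen level was not.

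In neurons, oligodendrocyte-like, microglia-like and astrocyte-like nuclei the type I chains were higher in striatum AAV-CTRL than in the other libraries. In neurons Col1a1 was at 1.73, 1.75, 18.3 and 3.13 CPM and Col1a2 at 2.40, 1.58, 16.8 and 4.11 CPM, with striatum log2 ratios of -2.55 (-2.83 to -2.28) and -2.03 (-2.28 to -1.79). In oligodendrocyte-like nuclei Col1a1 was at 4.71, 4.06, 55.2 and 6.41 CPM and Col1a2 at 3.26, 2.81, 49.2 and 9.62 CPM. Microglia-like nuclei had Col1a1 at 1.09, 0.964, 89.3 and 14.4 CPM and astrocyte-like nuclei at 10.8, 7.92, 43.1 and 16.4 CPM. Pericyte-like nuclei also had their highest Col1a1 level in striatum AAV-CTRL, from few UMIs. Not every class shared this order. Smooth muscle-like nuclei had Col1a1 levels of 187, 189, 149.7 and 239 CPM, lowest in striatum AAV-CTRL. Endothelial-like nuclei had levels of 30.2, 25.0, 59.6 and 80.4 CPM, highest in striatum AAV-VEGF-C. Single nuclei carried a large part of the Col1a1 UMIs in some classes of striatum AAV-CTRL. Of the 137 Col1a1 UMIs of SPN-like nuclei in that library 117 lay in 1 nucleus, of the 276 in oligodendrocyte-like nuclei 142 did, and of the 55 in microglia-like nuclei 29 did. Leaving out the nucleus with most UMIs in each library changed the striatum ratio of Col1a1 to -2.26 in neurons, -2.20 in oligodendrocyte-like, -1.81 in microglia-like and -1.02 in astrocyte-like nuclei.

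In osteoblast-like nuclei of the same library, the bone-forming cell type that makes type I collagen in bulk, Col1a1 was at 4759 (4506 to 5023) and Col1a2 at 3619 (3399 to 3850) CPM. They held 1319 of the 3549 Col1a1 UMIs and 1003 of the 3740 Col1a2 UMIs of the library. The ratio of Col1a1 over Col1a2 UMIs was 1.31 (1.21 to 1.43) in them and 0.503 to 0.646 in fibroblast-like nuclei over the 4 libraries. In striatum AAV-CTRL it was 1.09 (0.983 to 1.204) in neurons and 1.12 (0.941 to 1.34) in oligodendrocyte-like nuclei, and in striatum AAV-VEGF-C 0.760 (0.602 to 0.958) and 0.667 (0.419 to 1.05). In striatum AAV-CTRL the ratio was also 0.897 (0.750 to 1.07) in astrocyte-like and 1.77 (1.12 to 2.85) in microglia-like nuclei. The microglia-like ratio was above the osteoblast-like value, which its interval contained. In pericyte-like nuclei, where Col1a1 was also highest in this library, the ratio was 0.532. That value rests on 25 and 47 UMIs and lay within the fibroblast-like range. Single nuclei held a large part of the Col1a1 UMIs of oligodendrocyte-like, microglia-like and SPN-like nuclei in this library, as given above. The chain ratios were not computed without those nuclei. Whether free RNA of osteoblast-like or fibroblast-like cells entered the droplets of other classes was not tested. The osteoblast-like nuclei also had Col3a1 at 357, Col5a2 at 339, Col12a1 at 299.5, Col8a1 at 296 and Col11a1 at 281 CPM.

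**Figure D5:**
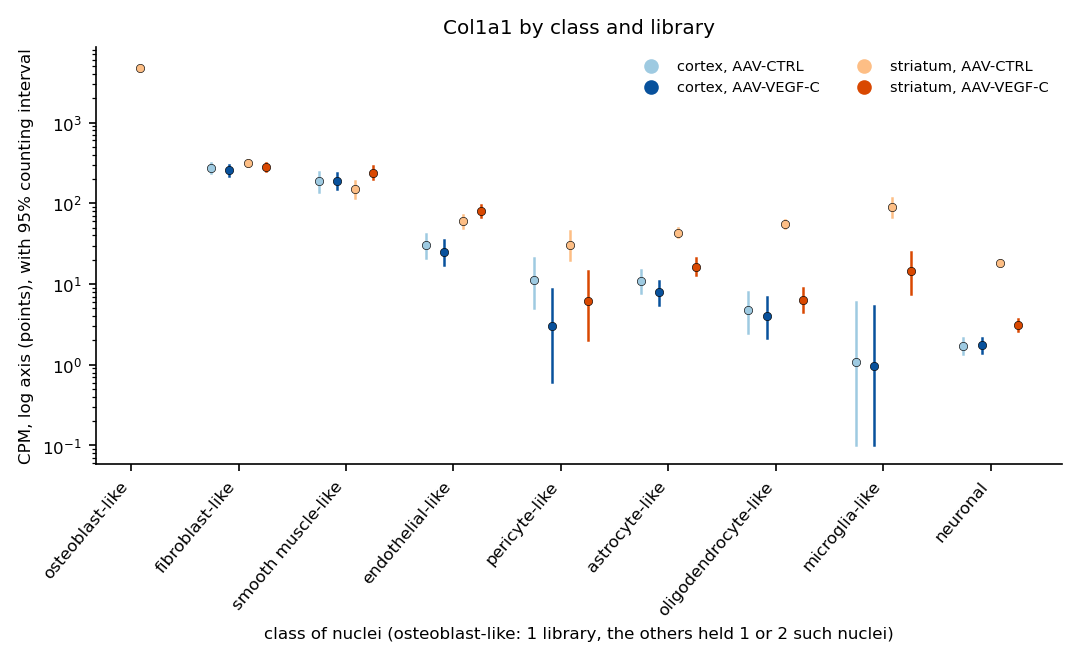
Level of Col1a1 by nucleus class and library, in CPM on a log axis with 95% counting intervals, whose lower ends are not drawn below 0.1. Striatum AAV-CTRL is the highest library in neurons, astrocyte-like, oligodendrocyte-like and microglia-like nuclei but lies beside the others in fibroblast-like nuclei (256 to 313 CPM), and osteoblast-like nuclei are shown for that library alone, at 4759 CPM.

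In vascular classes the AAV differences were few and rested on small counts. Of the pericyte-like class 0 of 4 collagens tested were called in cortex (6.22% of all genes) and 1 of 6 in striatum (8.03%), which was Col4a3, lower at -0.59 (-1.36 to 0.16). Smooth muscle-like nuclei had 1 of 11 in cortex (12.3%), Col15a1 at 0.83 (0.21 to 1.48), and 3 of 13 in striatum (10.9%), namely Col1a1 at 0.68 (0.24 to 1.12), Col5a2 at 0.84 (0.24 to 1.46) and Col23a1 at 0.94 (0.11 to 1.81), all higher with AAV-VEGF-C. The basement membrane pair was below the limit in both classes, with pericyte-like ratios for Col4a1 of -0.11 (-0.33 to 0.11) in cortex and -0.11 (-0.35 to 0.14) in striatum. In endothelial-like nuclei Col4a1 was lower in cortex AAV-VEGF-C at -0.52 (-0.77 to -0.28), short of 1.5-fold, and at -0.61 (-0.91 to -0.31) in the large cluster of the cortex libraries, past it. It was -0.01 (-0.21 to 0.18) in striatum. There 1 of 5 collagens was called in cortex (5.44%), Col25a1, higher at 0.59 (0.01 to 1.19) and at 0.11 without the nucleus of most UMIs in each library, and 3 of 15 in striatum (5.82%).

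Those 3, all higher with AAV-VEGF-C, were Col3a1, Col6a1 and Col18a1. Col3a1 was at 16.3, 13.3, 37.8 and 115 CPM in endothelial-like nuclei, with a striatum ratio of 1.60 (1.2 to 2.02). Of its 193 UMIs in striatum AAV-VEGF-C 80 lay in 1 nucleus, and without the top nucleus of each library the ratio was 1.2. Col6a1 had 1.24 (0.37 to 2.17) and Col18a1 0.66 (0.00 to 1.34), or 1.05 and 0.42 without the top nuclei, so that the Col18a1 call ended. Most of the Col3a1 UMIs lay in the small endothelial-like cluster led by Lcn2, Vwf and Icam1, where Col3a1 had 49 and 166 UMIs in the striatum libraries and was at 53.7, 34.0, 147 and 429.7 CPM. In the large cluster of the striatum libraries Col3a1 had 8 and 9 UMIs, and Col18a1 had 13 and 13. The fibroblast marker sum of endothelial-like nuclei was 3510.1 CPM in striatum AAV-CTRL and 4630 in striatum AAV-VEGF-C, and its part in these values was not tested.

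Glial and neuronal classes added calls that were mostly of type I and low-level chains. Astrocyte-like nuclei had 1 of 14 in cortex (2.88%), Col1a2, and 5 of 17 in striatum (4.03%), all lower, namely Col1a1, Col1a2, Col11a1, Col11a2 and Col12a1. Col1a2 was at 12.2, 7.47, 48.0 and 20.4 CPM and was the 1 collagen called lower under both labels there, at -0.71 (-1.41 to -0.03) in cortex and -1.23 (-1.60 to -0.88) in striatum. Col11a2 had the largest ratio of those outside type I, at -1.11 (-1.61 to -0.62), and was below the limit in cortex at -0.48 (-0.89 to -0.08). Oligodendrocyte-like nuclei had 2 of 5 in cortex (3.76%), Col4a2 and Col23a1, both lower, and 7 of 16 in striatum (3.35%), of which Col9a2 was higher at 0.62 (-0.25 to 1.53) and Col1a1, Col1a2, Col4a1, Col5a2, Col11a2 and Col15a1 were lower. The ratio of Col11a2 there was -1.36 (-2.17 to -0.60). OPC-like nuclei had 1 of 3 in cortex (6.15%), Col25a1, at 33.8, 17.7, 43.8 and 57.0 CPM, a cortex ratio of -0.93 (-1.80 to -0.09), and 0 of 10 in striatum (6.25%). Microglia-like nuclei had 0 of 3 in cortex (5.69%) and 1 of 4 in striatum (6.23%), Col1a1.

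Neurons had 4 of 40 collagens past the limit in cortex (2.27% of all genes) and 5 of 43 in striatum (3.85%). In cortex Col6a4 was higher with AAV-VEGF-C at 0.91 (0.54 to 1.29), and Col1a2, Col3a1 and Col4a3 were lower at -0.60 (-1.03 to -0.18), -0.87 (-1.72 to -0.05) and -0.61 (-1.33 to 0.10). In SPN-like nuclei Col6a4 was at 4.23, 9.62, 5.23 and 6.72 CPM, with 1.19 (0.51 to 1.90) in cortex and 0.36 (-0.91 to 1.66) in striatum, and this class was the one with its highest mean. In striatum Col1a1, Col1a2, Col5a2 at -0.70 (-1.06 to -0.34), Col13a1 at -0.81 (-1.55 to -0.11) and Col6a1 at -0.83 (-1.06 to -0.60) were lower. Col25a1 stayed well inside the limit, at -0.09 (-0.14 to -0.04) in cortex and 0.12 (0.09 to 0.16) in striatum.

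Between region labels many collagens differed, as many genes did. Striatum over cortex, 26 of 44 were higher with AAV-CTRL (59.1%, against 19.2% of all genes tested) and 17 with AAV-VEGF-C (38.6%, against 19.7%). There were 3 lower with AAV-CTRL (8.93% of all genes) and 4 with AAV-VEGF-C (8.78%). The 17 were all among the 26. The share of all genes called in both comparisons is not given here, so this overlap is not read as a result about collagens. Each comparison sets the 2 libraries of 1 pool of mice side by side. Without osteoblast-like nuclei the 26 became 23, without Col8a1, Col8a2 and Col14a1. Median ratios of the collagens were 0.66 and 0.47, against 0.19 and 0.20 for all genes.

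Type I and type III chains and Col19a1 were among those with the larger differences. Col1a1 had a log2 ratio of 2.85 (2.70 to 3.00) with AAV-CTRL and 1.10 (0.94 to 1.27) with AAV-VEGF-C, and Col3a1 1.90 (1.68 to 2.13) and 2.05 (1.81 to 2.30). Col25a1 was higher by 1.03 (0.99 to 1.07) and 1.33 (1.29 to 1.37), Col16a1 by 1.25 (1.08 to 1.42) and 1.30 (1.13 to 1.47), and Col18a1 by 1.66 (1.43 to 1.90) and 1.5 (1.28 to 1.72). Col19a1, at 64.8, 66.5, 18.5 and 13.7 CPM, was lower, with log2 ratios of -1.81 (-1.91 to -1.72) and -2.29 (-2.39 to -2.18). Col6a4 was also lower in both, at -0.63 (-1.09 to -0.17) and -1.2 (-1.58 to -0.83). The basement membrane pair differed little, with -0.18 (-0.26 to -0.10) and -0.14 (-0.22 to -0.05) for Col4a1 and -0.16 (-0.23 to -0.09) and 0.01 (-0.06 to 0.07) for Col4a2. Fibroblast-like nuclei were 2.02% and 1.40% of cortex nuclei and 3.60% and 2.12% of striatum nuclei, and excitatory cortical neurons 4490 and 5283 nuclei against 84 and 21, so that class mix and region label cannot be told apart in these values.

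Genes that fold, cut, cross-link or bind collagen were counted in the same way between AAV groups, where 1.41% of all genes were lower and 1.03% higher in cortex and 2.6% and 1.85% in striatum, so that counts of 0 or 1 per list are near the background. In the cortex libraries 0 of 20 genes of chain assembly and modification, 0 of 13 of propeptide cleavage and crosslinking, 0 of 9 receptors and 0 of 16 basement membrane partners passed 1.5-fold, with median log2 ratios of 0.00, -0.07, -0.08 and -0.10 against -0.01 for all genes. In the striatum libraries the counts were 0 of 20, 1 of 12, 0 of 9 and 0 of 16, with medians of -0.07, -0.21, -0.03 and -0.21 against 0.00. The 1 gene was Lox, lysyl oxidase, which cross-links fibrillar collagen, at 0.574, 0.520, 1.82 and 1.12 CPM with a striatum ratio of -0.70 (-1.15 to -0.27). Within fibroblast-like nuclei its relative Loxl1, better known for cross-linking elastin, was lower with AAV-VEGF-C under both labels, at 55.9, 31.0, 54.5 and 30.3 CPM. Its log2 ratio was -0.85 (-1.77 to 0.01) in cortex and -0.85 (-1.49 to -0.24) in striatum. It was 1 of 5 genes of its list tested in cortex and 1 of 6 in striatum, and in the other lists 0 of 8, 0 of 5 and 0 of 10 passed in cortex and 0 of 13, 0 of 7 and 0 of 12 in striatum. Of all genes tested in this class 4.26% were lower and 3.91% higher in cortex, and 5.51% and 2.41% in striatum.

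Across region labels 19.2% of all genes were higher and 8.93% lower under the striatum label with AAV-CTRL, and 19.7% and 8.78% with AAV-VEGF-C. With AAV-CTRL 8 of 20 assembly genes, 6 of 13 cleavage and crosslinking genes, 4 of 9 receptors and 7 of 16 basement membrane partners were higher under the striatum label, and 0, 2, 0 and 1 were lower. With AAV-VEGF-C the counts were 8, 7, 3 and 7 higher and 0, 3, 0 and 1 lower. The medians were 0.44, 0.37, 0.42 and 0.54 with AAV-CTRL and 0.41, 0.59, 0.41 and 0.38 with AAV-VEGF-C, against 0.19 and 0.20 for all genes. Serpinh1, the chaperone of newly made collagen, was at 13.0, 10.7, 21.0 and 18.6 CPM and higher in both, by 0.69 (0.56 to 0.82) and 0.80 (0.66 to 0.93) on the log2 scale.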

How the data were processed

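Nuclei of frozen, pulverised brain tissue were profiled by 10x Genomics 3′ single-nucleus RNA-seq. The authors deposited filtered matrices of UMI counts per gene and nucleus, made against mm10 with Cell Ranger (5.0.1 per the file headers, 5.1.1 per the submitters' processing notes). Whether intronic reads were counted is not given in the sources used here. The gene and barcode lists that the authors deposited beside the counts hold names only.

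From the counts, Scrublet (scanpy 1.11.5, run per library at an expected 8%) marked 4.31% to 7.95% of nuclei as doublets and these were left out with 16 of 79 clusters that held over 40% doublets, which kept 72665 of 78728 nuclei. Nuclei of all libraries were clustered together without collagens (5000 variable genes, 50 principal components, 15 neighbours, Leiden resolution 1.2, leidenalg 0.10.2). The clustering was not the authors' own, and class names rest on marker lists (at least 3 markers, each at least 2-fold higher and in at least 10% of nuclei). UMIs were summed per class and library. Ratios and intervals were computed with scipy 1.17.1 and checked on simulated counts. With 1 library per group no differential expression test was run.

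Every collagen with at least 50 UMIs was to be given, with the 3 of most UMIs in each main class and those past 1.5-fold under both labels in full. Members, markers and lists were chosen with earlier results of these data known. Alternatives changed the doublet filter, UMI minimum, scaling, depth, clustering and class mix. Gene positions are from GENCODE on GRCm38.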

Additional observations from a re-analysis of the deposited data

Results flagged for a closer look

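For 4 collagen values the ratio of AAV-VEGF-C over AAV-CTRL had opposite signs under the cortex and striatum labels, with counting intervals on opposite sides of 0. With 1 library per group the difference between labels was not tested. The share of all genes that met the same rule is not given here, so the count is not a result about collagens. The values also overlap, since neurons are part of all nuclei. Col25a1 over all nuclei had a log2 ratio of -0.15 (-0.20 to -0.11) in cortex and 0.14 (0.11 to 0.17) in striatum, a difference of 0.30. Within neurons it had -0.09 (-0.14 to -0.04) and 0.12 (0.09 to 0.16), a difference of 0.21. Within fibroblast-like nuclei Col25a1 had -0.53 (-0.71 to -0.34) and 0.15 (0.01 to 0.28), a difference of 0.67, and the striatum ratio was 0.00 once the nucleus with most Col25a1 UMIs was left out of each library, since 96 of its 763 UMIs in striatum AAV-VEGF-C lay in 1 nucleus. Within endothelial-like nuclei Col4a2 had -0.28 (-0.52 to -0.04) and 0.21 (0.01 to 0.40), a difference of 0.49. All 8 ratios but the cortex ratio of Col25a1 in fibroblast-like nuclei were smaller than 0.30 in size, and none was past 1.5-fold.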

How the results depend on the processing

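Between AAV groups over all nuclei, the 2 collagens higher in cortex became 1 with a minimum of 200 UMIs and 1 with nuclei thinned to 1000 UMIs, and the 1 lower became 0 with class shares held. In striatum the 8 lower became 14 when thinned, 2 with class shares held and 5 without osteoblast-like nuclei, and the 0 higher became 1 when thinned. In fibroblast-like nuclei of cortex the 0 lower became 2 with no nuclei left out, 1 with a minimum of 20 UMIs and 2 with each library clustered on its own, and the 0 higher became 1 with no nuclei left out. In striatum the 1 lower there became 0 with no nuclei left out, 3 with a minimum of 20 UMIs, 0 with ratios centred on the median gene, 2 when thinned and 2 without the nucleus of most UMIs, and the 0 higher became 1 when thinned. Over the other 8 classes the 10 calls in cortex became 27, 1 and 18 (minimum of 20, minimum of 200, libraries clustered alone), and the 25 in striatum 44, 63 and 9 (no nuclei left out, minimum of 20, minimum of 200). Between region labels the 3 lower with AAV-CTRL became 1 with a minimum of 200 UMIs and 1 when thinned, and the 17 higher with AAV-VEGF-C became 11 when thinned. The share of all genes called under each setting is not set beside these counts, so they are not read as results about collagens. The cause of these changes was not tested.

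The fibroblast-like share of collagen UMIs was 8.82%, 6.77%, 13.3% and 10.2% with no nuclei left out, and 5.82% and 11.6% in cortex AAV-VEGF-C and striatum AAV-CTRL with libraries clustered alone. The neuronal share was 65.8%, 67.7%, 50.2% and 60% with no nuclei left out, 72.9% in cortex AAV-VEGF-C with collagens kept in the clustering and 64.1% in striatum AAV-VEGF-C with libraries clustered alone. The summed collagen log2 ratio was -0.16 in cortex and -0.40 in striatum when thinned, -0.062 and -0.004 with class shares held, and -0.12 in striatum without osteoblast-like nuclei. Among values of single genes 82 moved beyond their interval, 40 of them when thinned, and 781 did not, and no direction of a called value turned. Leaving out osteoblast-like nuclei and leaving out the nucleus of most UMIs were chosen after seeing the data. With libraries clustered alone no smooth muscle-like class gave a value. No paired analysis was possible for the AAV comparison because each AAV group was 1 pool of mice. A fit of the region label over the 2 pools, with the pool as a block and 1 residual degree of freedom, was not run. Each comparison set 1 library against 1, so leaving out a library would leave nothing to compare.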
